A study of Mus musculus with 4 samples.

Results

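Primary adipocyte cultures made from mouse visceral fat were set against whole epididymal fat, the intra-abdominal pad that lies beside the epididymis. The comparison rests on 2 of the 4 arrays of the series. On the first, the cultured adipocytes had received the solvent DMSO alone for 2 h, and on the second the whole fat pads came from mice on normal chow. These 2 arrays were picked by their sample labels, though earlier results of these data were known by then. The other 2 arrays are shown beside them as further samples of each kind: adipocyte cultures given 10 µM forskolin, an activator of adenylyl cyclase, over the same 2 h, and fat pads of mice on a diet with 60% fat for 12 weeks. RNA was extracted with Trizol and a column, labelled with biotin and hybridised to Affymetrix arrays. The column names of the deposited table call the fat samples WT. The sources used here do not state the strain, sex and age of the mice, the number of animals pooled, how the fat cells were freed, whether they were mature or had been differentiated from precursors, or how long they were cultured. Each group is 1 array, so there is no spread between replicates and no test. The array numbers in the labels fall into 1 series for the cultures and another for the fat, so sample type and array series cannot be told apart. In whole tissue, fewer cells of a type and less RNA per cell cannot be told apart either.

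White fat is built of adipocytes, which hold triglyceride in a large lipid droplet, take up glucose and fatty acids under insulin, release fatty acids when catecholamines act on beta-adrenergic receptors, and secrete hormones such as adiponectin and leptin. Around them lie the stromal and vascular cells: capillary endothelium and its pericytes, fibroblasts and their adipocyte precursors, macrophages and lymphocytes, and, on visceral pads, a surface layer of mesothelium. A preparation of fat cells holds mainly the first kind, while RNA from a whole pad holds all of them.

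The 4 arrays carried 22626 probe sets, of which 21375 named a gene. 13108 genes were on the table and 12975 had a value on both arrays of the comparison. The median intensity of all probe sets was 236 in the vehicle culture, 237 in the forskolin culture, 266 in chow fat and 314 in high fat diet fat. Intensities below an array's 10th percentile, which lay between 22.1 and 26.0, were set to that value, called the floor below. A difference is the log2 intensity of the vehicle culture minus that of chow fat. Intensities are given for the vehicle and then the forskolin culture, and for chow and then high fat diet fat. They compare samples for 1 gene and not genes with each other.

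The difference between culture and tissue was broad. Among the 7398 genes whose brighter array reached the median level of all genes, an intensity of 340.5, 1253 (16.9%) were 2-fold or more higher in culture, 1306 (17.7%) were 2-fold or more lower, and 3255 (44%) lay within 1.5-fold. Over all 12975 measured genes these shares were 12.3%, 17.1% and 49.4%, and they are the background for the counts of list members below, which take every measured member whatever its level. In these counts higher and lower mean by 2-fold or more. The share higher rose with level. With the filter at the 75th percentile, 20.8% of 4120 genes were higher and 14.1% lower. For counts in lists of bright genes these shares are therefore a further background, though most paragraphs below do not repeat them. Of the 7398 compared genes, 363 differed by 8-fold or more and 51 by 32-fold or more. Centring both arrays on the median of all genes turned the split between higher and lower calls from 49.0% higher to 64.3% higher, and moved the median difference of all genes from -0.13 to 0.12 on the log2 scale. Differences near 2-fold therefore depend on the scaling, and list medians are read beside the -0.13 of all genes.

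The treatments within each sample type give a scale. Forskolin and vehicle cultures differed by 2-fold in 1.36% of the compared genes, with an SD over genes of 0.299 on the log2 scale, and high fat diet and chow fat differed by 2-fold in 21.7%, with an SD of 0.999. The latter pair shares the chow array with the main comparison. Culture against chow fat gave 34.6% and an SD of 1.37. The forskolin culture against high fat diet fat, a pair that shares no array with the main one, gave 30.3%. Of 7380 compared genes with values on all 4 arrays, 473 (6.41%) had both cultures 2-fold or more above both fat samples, and 722 (9.78%) had both 2-fold or more below. Over all measured genes with 4 values these shares were 4.26% and 8.12%, and genes of these classes are called separated on all 4 arrays. The arrays of a kind had different treatments and are not replicates.

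**Figure D1:**
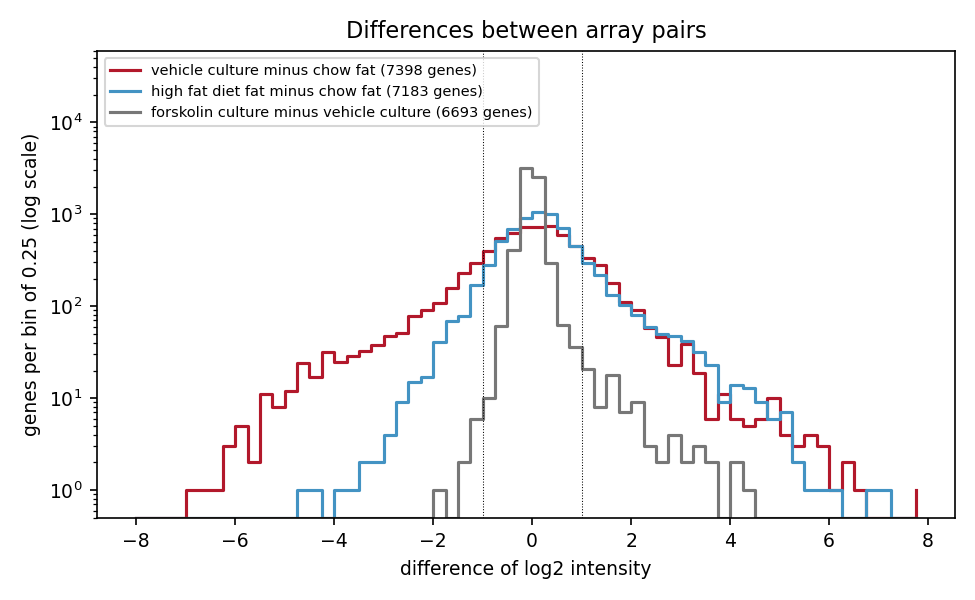
Number of genes (log axis) per bin of 0.25 in the difference of log2 intensity for 3 array pairs, over genes whose brighter array reached the median level; dotted lines mark 2-fold. On the lower side the curve for vehicle culture minus chow fat reaches far past that for high fat diet minus chow, on the upper side the 2 curves run close together, and the forskolin curve lies mostly between the dotted lines.

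Every one of the 17 measured endothelial markers was 2-fold or more lower, with a median difference of -4.21, and all were separated on all 4 arrays. Cdh5, the cadherin of endothelial junctions, read 48.9 and 57.5 in the cultures and 3661 and 2163 in fat. Its intensity in the vehicle culture was 74.9-fold lower than in chow fat. Plvap, which forms the diaphragms of fenestrated capillaries, read 21.4 and 31.7 in the cultures and 1425 and 1179 in fat, a level at least 64.5-fold lower in culture. Vwf, the clotting factor stored by endothelium, was at least 59.3-fold lower (14.7 against 1309.6), and Sox17, an arterial transcription factor, was 58.2-fold lower (36.4 against 2114). For each of the 4 genes both cultures lay far below both fat samples. Adgrl4, an adhesion receptor of endothelium that is not on the list, was among the lowest genes in culture, at 21.6 against 2167, at least 98.0-fold lower. Summed over the list, the intensities were 2346 and 2309 in the cultures and 29096 and 20508 in the fat samples.

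Of 7 pericyte markers 5 were lower and none higher (median -3.38), led by Kcnj8, a subunit of the ATP-sensitive potassium channel of mural cells (36.3 against 1456, 40.1-fold lower), and Rgs5, a regulator of G protein signalling (19.6 against 692, at least 31.3-fold lower). Among 16 genes of vessel growth and tone, 8 were lower and none higher. The endothelial receptors Notch4 (23.3-fold lower), Kdr (20.9-fold lower) and Tek (14.8-fold lower) and the growth factor Vegfa, which fat cells also make (365 against 2094, 5.74-fold lower), differed most. Vegfa read 1411 in the forskolin culture and 396 in high fat diet fat, and another probe set of it had a difference of 0.82, the opposite sign. The 14 smooth muscle and myofibroblast markers were mixed. Of these, 8 were lower and none was 2-fold higher, while their summed intensity was 18208 in the vehicle culture and 15969.9 in chow fat. Myh11, the myosin heavy chain of differentiated smooth muscle, was 24.8-fold lower (37.8 against 938). In contrast, Acta2, smooth muscle alpha actin, read 5867 and 5099 in the cultures and 3197 and 3903 in fat, which is 1.83-fold higher in the vehicle culture than in chow fat and under the 2-fold threshold. Lymphatic endothelium gave 3 lower and 1 higher of 5 markers. Lyve1, a hyaluronan receptor, was 13.3-fold lower, and Pdpn, a mucin-like protein also found on activated fibroblasts, was 3.33-fold higher (3372 against 1014).

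Preadipocyte and fibroblast markers were lower in culture for 16 of 18 genes and higher for none, with a median difference of -3.33. Of the list, 15 genes were separated on all 4 arrays. Pdgfra, the receptor that marks adipocyte precursors, read 32.7 and 16.8 in the cultures and 1321 and 2159.8 in fat, 40.4-fold lower in culture. Fn1, fibronectin, which cultured fibroblasts make in large amounts, read 93.6 and 94.9 in the cultures and 3728 and 5901 in fat, 39.8-fold lower. Postn, a matrix protein of activated fibroblasts, was 40.8-fold lower (79.0 against 3225), and Cd34, a surface glycoprotein of precursors and endothelium, was 39.3-fold lower (29.5 against 1159). These values place both cultures below both fat samples, with no overlap for any of the 4 genes. Aspn, a small leucine-rich matrix proteoglycan, was at least 58.1-fold lower (8.76 against 1284), and Penk, which encodes the precursor of enkephalins, was 62.6-fold lower (31.1 against 1950.3).

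Mesothelial markers were lower for 10 of 12 genes (median -2.62). Upk3b, a uroplakin of the mesothelial surface, read 17.6 and 25.9 in the cultures and 975 and 495 in fat, at least 44.1-fold lower in culture. Rspo1, a secreted enhancer of Wnt signalling, was at least 39.6-fold lower (18.7 against 876), and Wt1, the Wilms tumour transcription factor, was at least 18.1-fold lower (21.2 against 399.9). The exception was Slpi, a secreted inhibitor of leukocyte proteases that epithelia and fat also make, which was 5.15-fold higher (7166 against 1390.2).

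Macrophage markers were lower for 15 of 18 genes, higher for none, and separated on all 4 arrays for 13 (median -3.14). Tyrobp, the signalling adaptor of myeloid receptors, read 20.04 and 20.7 in the cultures and 1515 and 10021 in fat, at least 68.6-fold lower in culture. C1qc, a chain of the complement protein C1q, read 66.7 and 58.5 in the cultures and 2649 and 10009.9 in fat, 39.7-fold lower. Fcgr3, a receptor for IgG, was 33.2-fold lower, and Mrc1, the mannose receptor, was 26.5-fold lower. Lyz2, the lysozyme of myeloid cells, was lower by 14.3-fold and still read 231 in the vehicle culture against 3304 in chow fat. F13a1, the clotting factor XIII subunit made by tissue macrophages, had the lowest difference of all named genes, with intensities of 17.2 and 23.6 in the cultures and 2595 and 1799 in fat (at least 117-fold lower). Summed over the list, macrophage markers gave 5809.9 and 6233 in the cultures and 25189 and 108561 in the fat samples.

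The other blood and immune cell lists had medians nearer to that of all genes than the macrophage list, and many of their members were dim. The lowest of these medians was -1.23, for dendritic cell and MHC class II genes. Genes of the lipid-associated macrophages that gather in obese fat gave 2 higher and 2 lower of 10. The higher ones were Spp1, the secreted phosphoprotein osteopontin, and Lgals3, a galectin, both made by many stressed or activated cells, and Cd9, a tetraspanin, was lower. Spp1 read 1724 and 2179.9 in the cultures and 22.5 and 855 in fat, at least 68.7-fold higher in culture, and Lgals3 read 11541 and 11799 in the cultures and 2579.6 and 11441 in fat, 4.47-fold higher than in chow fat but not above high fat diet fat by 2-fold. Of 8 dendritic cell and MHC class II genes 4 were lower, led by H2-Aa (167 against 3312) and H2-Ab1 (42.0 against 551), 2 chains that present antigen. Counts of lower and higher members were 2 and 0 of 13 for T and NK cells, 4 and 1 of 9 for B and plasma cells, and 4 and 0 of 8 for mast cells. They were 1 and 1 of 8 for neutrophils. S100a8, a calcium-binding protein of neutrophils and inflamed epithelia, was the higher one (2196 against 269, 8.15-fold higher). Red blood cell genes gave 1 lower of 3, the alpha globin Hba-a1 (357 against 8666, 24.3-fold lower). Lists for other tissues that a dissection could carry along gave 2 lower of 9 for nerve, 0 of 10 for skeletal muscle, 4 of 10 for epididymis and testis, and 3 of 9 for liver. None was higher but 1 of the epididymis and testis list, which had a median of 0.09 and 1 member at the level filter.

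**Figure D2:**
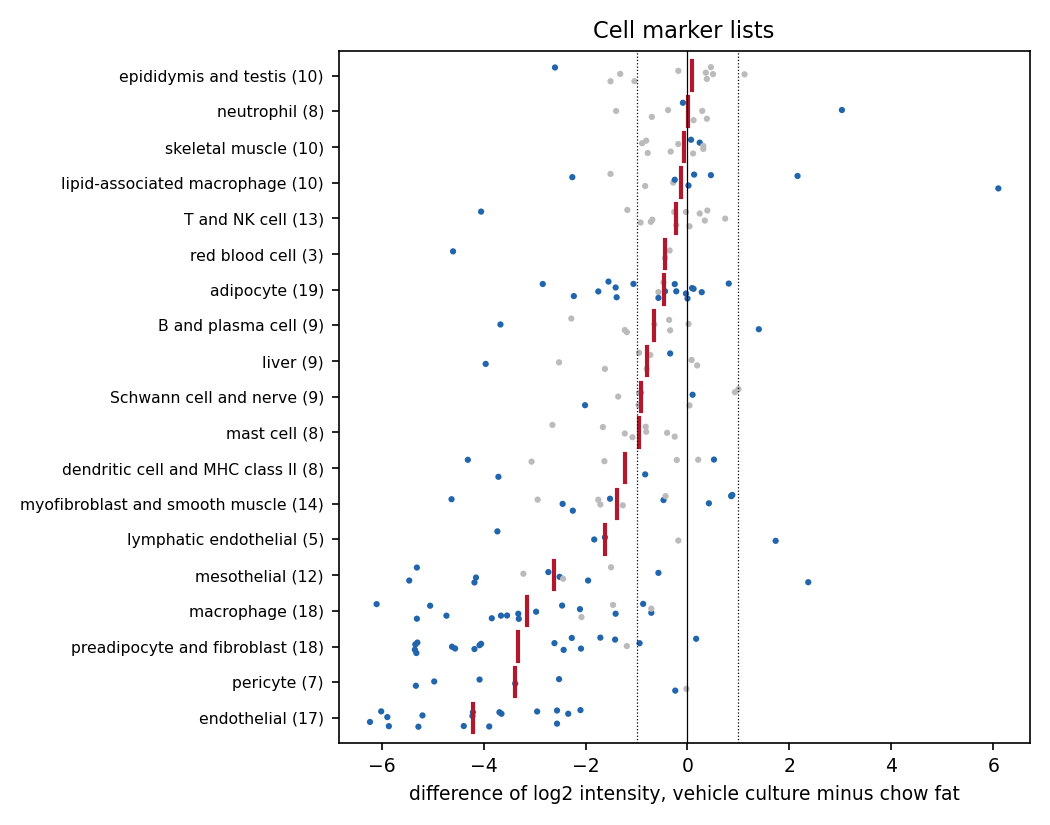
Difference of log2 intensity, vehicle culture minus chow fat, for each measured member (points, jittered) of the 19 cell marker lists, with the number measured in brackets; blue points reached the median level on the brighter array, grey points did not, the red bar is the list's median and dotted lines mark 2-fold. The endothelial, pericyte, fibroblast, macrophage and mesothelial lists lie left of the 2-fold line by their medians. So do the lymphatic endothelial, smooth muscle and MHC class II lists (medians of -1.62, -1.39 and -1.23). The adipocyte list has a median of -0.47.

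Of 19 adipocyte markers none was 2-fold higher, 7 were 2-fold lower and 11 lay within 1.5-fold (median -0.47). Adipoq, which encodes adiponectin, read 10261 and 10449 in the cultures and 10456 and 9962 in fat. Its levels in the vehicle culture and chow fat differed by 1.02-fold. Cfd, the complement factor adipsin, read 13169 and 13530.2 in the cultures and 12082 and 5663 in fat, and Fabp4, the fatty acid binding protein of fat cells, read 10823 and 11401 in the cultures and 12624 and 12789 in fat. In the main pair all 3 lay within 1.5-fold, and the lowest of their values was that of Cfd in high fat diet fat. Retn, the hormone resistin, differed by 1.07-fold (10716 against 10055), and Lep, leptin, was 1.76-fold higher in culture, under the 2-fold threshold (1419 against 808, and 5517 in high fat diet fat). Car3, a carbonic anhydrase of fat cells, read 13686 and 13965 in the cultures and 13698 and 13178 in fat. The highest intensity on each array lay between 13228 and 13965, so these genes sit near the top of the range, where signal can saturate. The 7 lower markers were Lipe, Pparg, Cebpa, Cidec, Plin4, Gpd1 and Acsl1. Plin4, a droplet coat protein, read 3039 and 3334 in the cultures and 8069 and 6775 in fat, 2.65-fold lower, and Cidec, which fuses droplets, read 2672 and 2624 in the cultures and 7844 and 7279 in fat, 2.94-fold lower. Cidea, a droplet protein of brown fat, was near the floor in culture and dim in fat (27.2 and 32.7 in the cultures and 40.3 and 80.2 in fat).

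Among transcription factors of fat cells, Pparg and Cebpa were lower in culture. Pparg, the nuclear receptor that drives adipocyte differentiation, read 709 and 889.9 in the cultures and 3335 and 1827 in fat, 4.70-fold lower in the vehicle culture than in chow fat. Cebpa, its partner transcription factor, read 1594 and 1743 in the cultures and 5366 and 5475 in fat, 3.37-fold lower. Both cultures lay below both fat samples for each gene. Of 17 adipogenic transcription factors 6 were lower, 2 higher and 7 within 1.5-fold. Zfp423, a zinc finger factor of preadipocytes, was 8.35-fold lower, Klf2, which in fat represses Pparg and is also an endothelial factor, was 7.57-fold lower, and Gata2, another repressor of Pparg, was 5.24-fold lower. The higher pair was Klf5 and Cebpb, which act early in differentiation and are also induced by inflammatory signals. Klf5 read 483 against 163 and Cebpb 8272 against 3019. Depot identity genes, mainly developmental transcription factors, were lower for 8 of 17 and higher for 1. Nr2f1 (at least 33.9-fold lower), Tcf21 (at least 24.7-fold lower), Wt1 and Irx3 (7.49-fold lower) differed most, and Tcf21 and Wt1 also mark fibroblastic and mesothelial cells.

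Lipid storage and release genes were lower in culture for 7 of 14 genes and higher for 1 (median -1.04). Lipe, hormone-sensitive lipase, read 607 and 646 in the cultures and 4349 and 3804 in fat, 7.17-fold lower. G0s2, an inhibitor of adipose triglyceride lipase, read 209.7 and 146 in the cultures and 1953 and 2842 in fat, 9.31-fold lower, and Plin5, a droplet coat protein of oxidative tissues, was 10.4-fold lower (38.2 against 399.6). In each of these genes the 2 cultures were below the 2 fat samples. Of the 7 lower genes of the list, 6 were separated on all 4 arrays. Adrb3, the beta3-adrenergic receptor that starts lipolysis in rodent fat, was 5.77-fold lower (169 against 973). Adora1, the adenosine receptor that restrains lipolysis, was 23.4-fold lower (46.0 against 1075), and the phosphodiesterase Pde4b was 8.09-fold lower (52.1 against 422). The adrenergic and natriuretic list as a whole gave 6 lower and 4 higher of 14 (median -0.32). The higher ones included Npr3, the clearance receptor of natriuretic peptides (372 against 133, 2.80-fold, with 696 in high fat diet fat), Hcar2, a receptor that restrains lipolysis (501 against 184, 2.73-fold), and Prkar1a, a regulatory subunit of protein kinase A (2.44-fold, with the opposite sign in another probe set). Thermogenic genes gave 7 lower and 0 higher of 14. Besides Adrb3 they were led by Cox8b, a cytochrome oxidase subunit of brown fat (4.72-fold lower), and the coactivator Ppargc1b (4.62-fold lower).

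Of 20 genes of fatty acid and triglyceride synthesis 4 were higher and 7 lower, with a median of 0.10. Among enzymes that assemble triglyceride, Lpin1, a phosphatidate phosphatase, was lower by 12.7-fold (446 against 5679), Dgat1, which adds the last fatty acid, by 6.36-fold (824 against 5243), and Gpam, which adds the first, by 5.98-fold (1204 against 7199). In Dgat1 the forskolin culture read 5470.4 and high fat diet fat 2107, so that samples of the 2 kinds overlapped. Another probe set of Gpam had a difference of 0.49, the opposite sign. Dgat2, the other enzyme that adds the last fatty acid, was 1.57-fold higher (5990.3 against 3809), under the 2-fold threshold, with a difference of 2.42 in another probe set. Fads2, a desaturase, was 4.28-fold higher (546 against 128), and another of its probe sets had a difference of 0.90. Gpam read 1825 in high fat diet fat. Uptake and binding genes gave 1 higher and 2 lower of 12. Fabp5 (2.83-fold lower) and Acsl1, an acyl-CoA synthetase (2.08-fold lower), were the lower ones, and Acsl5 was the higher one (2.32-fold).

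Genes of cholesterol synthesis and uptake, targets of the transcription factor SREBP2, were higher in culture for 9 of 20 and lower for 4 (median 0.94). Of these, 5 of the higher and 1 of the lower were separated on all 4 arrays. Fdps, farnesyl diphosphate synthase, read 1441 and 1504 in the cultures and 158 and 713 in fat, 9.10-fold higher in culture, and Sqle, squalene epoxidase, read 1311 and 1418 in the cultures and 154 and 331 in fat, 8.52-fold higher. Both genes were higher in both cultures than in either fat sample. Idi1, an isomerase of the same pathway, was 4.84-fold higher.

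Insulin signalling genes gave 6 lower and 2 higher of 14 (median -0.76), with 1 lower and 1 higher separated on all 4 arrays. Their high fat diet minus chow median was -0.59. The adaptors of the insulin receptor were the lowest. Irs3, an adipocyte form in rodents, was 8.83-fold lower (72.6 against 641, and 437 in high fat diet fat). Irs1 was 7.22-fold lower (345 against 2492, and 639 in high fat diet fat). Foxo1, a transcription factor restrained by insulin, was 3.54-fold lower (569 against 2017, and 1045 in high fat diet fat). Trib3, a pseudokinase that binds Akt, was 2.88-fold higher. Slc2a4, the insulin-regulated glucose transporter, did not reach the level filter and read 176 and 181 in the cultures and 245 and 349 in fat. Among fat hormones and other secreted proteins 3 of 17 were higher and 3 lower. Nrg4, a neuregulin released by fat, was 6.03-fold lower (243 against 1464, and 388 in high fat diet fat). Metrnl, a secreted protein related to meteorin, was 3.78-fold higher than in chow fat but below high fat diet fat (1387 and 1588 in the cultures and 367 and 3273 in fat).

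Mitochondrial genes differed by pathway. Of 29 oxidative phosphorylation genes none was 2-fold different and 26 lay within 1.5-fold (median -0.04), against 49.4% of all genes. The largest difference among them was that of Atp5g1, a subunit of the ATP synthase (1.99-fold higher). Fatty acid oxidation gave 9 lower and none higher of 24 (median -0.75). Ehhadh, a peroxisomal bifunctional enzyme, read 96.2 and 101 in the cultures and 2206 and 359.5 in fat, 22.9-fold lower in culture. Cpt2, the inner carnitine palmitoyltransferase, was 4.86-fold lower (515 against 2505), and Slc25a20, the carnitine carrier, was 3.78-fold lower (932 against 3518). These steps bring long-chain fatty acids into the mitochondrial matrix. Breakdown of branched-chain amino acids gave 4 lower and 1 higher of 19, beside 17.1% lower of all genes. None of the list was separated on all 4 arrays. Its median was -0.65, and that of high fat diet minus chow was -0.67. Hibch (3.82-fold lower), which acts in valine breakdown, and Dbt (2.95-fold lower), of the branched-chain ketoacid dehydrogenase, were at the low end. Hibch read 1137 and 1062 in the cultures and 4340 and 1033 in fat. Dbt read 463 and 462 in the cultures and 1366 and 457 in fat. The citrate cycle list gave 3 lower of 22. Pdk2 (11.2-fold lower) and Pdk1 (4.62-fold lower), kinases that switch off pyruvate dehydrogenase, and Cs, citrate synthase (2.20-fold lower), were the 3.

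Glycolysis gave 3 higher and 2 lower of 16, beside 12.3% higher of all genes and 20.8% with the filter at the 75th percentile. Its median was 0.23, and that of high fat diet minus chow was 0.49. Pkm (3.18-fold higher), Eno1 (2.63-fold higher) and the basal glucose transporter Slc2a1 (2402 against 919, 2.61-fold higher) were the higher ones. In high fat diet fat Pkm read 5631 and Eno1 5592, less than 2-fold below both cultures. Slc2a1 read 632 there, and was the only gene of the list with both cultures 2-fold or more above both fat samples. The hypoxia list was divided, with 6 higher and 8 lower of 20. Hmox1, heme oxygenase, read 6519 and 5390.3 in the cultures and 653 and 2567 in fat, 9.99-fold higher, and Adm, the peptide adrenomedullin, was 9.22-fold higher (4811 against 522). On the other side Ddit4, an inhibitor of mTORC1 that glucocorticoids and fasting also induce, read 225 and 2929 in the cultures and 3934 and 1810.3 in fat, 17.5-fold lower than in chow fat. P4ha2, a prolyl hydroxylase of collagen, was 8.06-fold higher (3248 against 403). Detoxification and steroid metabolism gave 12 lower and 1 higher of 32. Cyp4b1, a cytochrome P450, was 22.99-fold lower (123 against 2830.0), and Ephx2, soluble epoxide hydrolase, was 6.84-fold lower (999 against 6839.6).

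Of 28 chemokines and cytokines 10 were higher and 5 lower, with 5 and 5 separated on all 4 arrays (median -0.26). Cxcl5, which attracts neutrophils, read 6059 and 6489 in the cultures and 14.2 and 20.8 in fat, with both fat samples under the floor, so that it was at least 242-fold higher in culture. Ccl2, which attracts monocytes, read 11019 and 11428 in the cultures and 124 and 717 in fat, 89.0-fold higher than in chow fat. The difference between the 2 fat samples in Ccl2 is smaller than that between either of them and the cultures. Ccl7, its neighbour in function, was 91.8-fold higher (8580.4 against 93.5, and 439.5 in high fat diet fat). Il6, interleukin 6, read 2650.2 and 4966 in the cultures and 66.1 and 48.0 in fat, 40.1-fold higher in the vehicle culture. Csf2, the granulocyte-macrophage growth factor, was at least 59.3-fold higher (1487 against 24.97). The lower members included Ccl6 (15.0-fold lower) and Ccl11 (7.32-fold lower), chemokines made by macrophages and by fibroblasts. These differences stood beside the low macrophage markers described above, whose part in the result was not tested.

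Il6 is one of 20 measured genes of the chemokine and cytokine list with a RefSeq promoter window, 250 bases before to 50 after the transcript start in GRCm38.p6. Its window is shown because a kappa B site, the letters bound by NF-kappa B, was searched for on both strands of these genes. The letters were found in 5 of 20 windows (25%) against 9.55% of the windows of all 27025 genes, and the match in Il6 is in capitals (chr5:30012864-30013163, plus strand).
Il6: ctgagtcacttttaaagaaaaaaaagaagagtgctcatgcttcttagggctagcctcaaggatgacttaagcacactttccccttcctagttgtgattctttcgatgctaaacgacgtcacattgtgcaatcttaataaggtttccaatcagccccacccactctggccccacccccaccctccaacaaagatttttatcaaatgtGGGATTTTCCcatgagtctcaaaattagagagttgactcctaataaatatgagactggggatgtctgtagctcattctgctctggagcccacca
The match describes letters in this window and says nothing of binding.

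Acute phase and innate defence genes were higher for 7 of 19 and lower for none (median 0.53). Of the 7, 4 were separated on all 4 arrays. Ptx3, a long pentraxin, read 7856 and 8084 in the cultures and 183 and 239 in fat, 43.0-fold higher in culture. Lcn2, the siderophore-binding lipocalin, read 9672 and 9159 in the cultures and 319.8 and 355 in fat, 30.2-fold higher. In both genes the lower culture was above the higher fat sample by more than 2-fold. Icam1, an adhesion molecule, was 7.48-fold higher (1934 against 258), and Saa3, a serum amyloid made in fat, was 6.51-fold higher (4564 against 701). Complement and coagulation gave 4 higher and 7 lower of 18. F13a1 and C1qc, described with the macrophages, were the lowest, and Cfb, complement factor B, was 4.72-fold higher (4083 against 865). Serpinb2, an intracellular inhibitor of plasminogen activators, read 1967 and 1961 in the cultures and 16.5 and 8.16 in fat and was at least 78.4-fold higher.

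Further genes were among the highest in culture. Fosl1, an AP-1 subunit, read 4680.5 and 4877 in the cultures and 75.9 and 29.9 in fat, 61.6-fold higher. Tnfrsf12a, the receptor of the cytokine TWEAK, was 52.2-fold higher (7801 against 149). Sphk1, a sphingosine kinase, was 31.4-fold higher (1884 against 60.0). For Fosl1 and Tnfrsf12a both cultures were at least 2-fold above both fat samples. Tgif1, a repressor in TGF-beta signalling, was 58.3-fold higher, A4galt, a glycolipid galactosyltransferase, was at least 45.9-fold higher, Angptl2, a secreted angiopoietin-like protein, was 35.1-fold higher, and Sh2b3, an adaptor that restrains cytokine receptors, was 34.6-fold higher. In high fat diet fat these 4 genes read 781, 183, 255 and 234, more than in chow fat (39.3, 5.60, 72.8 and 52.3) and less than in the vehicle culture (2294, 1151, 2554 and 1812). Csprs, a gene of a repeated locus, was at least 41.8-fold higher than in chow fat, read 1018 in high fat diet fat and 1048 in the vehicle culture, and signal from near-identical copies cannot be told apart. Growth factors and IGF binding proteins as a list were lower more often than higher, 14 and 5 of 28 (median -0.87). Among the lower members were Ccn3 (at least 19.6-fold lower), Igfbp6 (16.4-fold lower) and Gdf10 (15.0-fold lower), secreted proteins of stromal cells. Wnt signalling genes gave 10 lower and 2 higher of 24. Sfrp2 was 17.0-fold lower and Fzd4 7.29-fold lower, and Ccn4, a secreted Wnt target also called WISP1, was 12.4-fold higher (737 against 59.5).

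Collagens gave 8 lower, 1 higher and 8 within 1.5-fold of 21 (median -0.47). Col1a1, the main chain of type I collagen, read 231 and 251 in the cultures and 2799 and 4496 in fat, 12.1-fold lower. Col8a1 (9.77-fold lower), Col3a1 (7.46-fold lower) and Col14a1 (6.03-fold lower) followed. Matrix glycoproteins and proteoglycans gave 13 lower, 4 higher and 9 within 1.5-fold of 32. Tnc, tenascin C, a protein of healing wounds, read 7374 and 7738 in the cultures and 139 and 209 in fat, 53.1-fold higher in culture, while Fn1 and Postn, above, were lower. Enzymes of collagen processing gave 3 higher and 2 lower of 16. Pcolce, which speeds procollagen cleavage, was 5.43-fold lower (181 against 981). Matrix proteases and their inhibitors gave 5 higher and 10 lower of 21. Timp1, an inhibitor of metalloproteases, read 4626 and 5119 in the cultures and 175 and 1261 in fat, 26.4-fold higher, while the gelatinase Mmp2 read 184 and 171 in the cultures and 1488 and 3016 in fat, 8.07-fold lower. Fibroblast markers, the usual source of these matrix proteins, were low in the same samples (16 of 18 lower, with sums of 19476 and 20016 in the cultures and 48155 and 64091 in fat), and their part in the result was not tested.

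Of 33 actin cytoskeleton genes and targets of the transcription factor SRF, 12 were higher and 4 lower (median 0.69). Of these, 4 of the higher and 2 of the lower were separated on all 4 arrays. The high fat diet minus chow median of the 33 genes was 0.63. Msn, moesin, which ties actin to the membrane, read 4692 and 5018 in the cultures and 162 and 1698 in fat, 29.0-fold higher. Lmna, lamin A, was 7.23-fold higher than in chow fat (4911 against 679, and 2667 in high fat diet fat), and its other probe sets had differences of 0.40 to 1.40. Flna, filamin A, was 4.12-fold higher than in chow fat (5729 against 1392) and read 5269.6 in high fat diet fat. The lower ones included Myl9, a myosin light chain of smooth muscle (5.46-fold lower). Focal adhesion and integrin genes gave 4 higher and 1 lower of 22. Itgb1, the common beta1 integrin chain, was 4.66-fold higher (4012 against 861, and 2829 in high fat diet fat), Ilk, the kinase at its tail, was 3.14-fold higher, and Itga3 was 3.86-fold lower. TGF-beta and YAP targets gave 9 higher and 4 lower of 22. Tgfbi, a matrix protein of macrophages and fibroblasts, was 19.0-fold lower (64.1 against 1218), and the ligand Tgfb1 was 6.67-fold higher than in chow fat and below high fat diet fat (2121 and 1979 in the cultures and 318 and 2868 in fat).

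The CArG box, the letters bound by SRF, was present in 6 of 30 promoter windows of the actin and SRF list (20%) and in 1.81% of the windows of all genes, searched on both strands. The window of Srf itself is shown for its 2 matches, in capitals (chr17:46556113-46556412, minus strand, RefSeq, GRCm38.p6).
Srf: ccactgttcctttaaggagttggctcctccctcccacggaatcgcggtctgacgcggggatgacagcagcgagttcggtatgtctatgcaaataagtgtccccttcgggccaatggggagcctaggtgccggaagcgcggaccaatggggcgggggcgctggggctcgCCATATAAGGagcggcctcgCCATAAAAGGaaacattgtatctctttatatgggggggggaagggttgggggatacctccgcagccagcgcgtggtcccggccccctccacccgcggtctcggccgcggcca
Srf read 1806 in the vehicle culture and 735 in chow fat.

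Genes that interferons induce were higher in culture than in chow fat for 21 of 24, lower for none, with a median of 2.50. The high fat diet sample stood close to the cultures, and only 5 of the 24 were separated on all 4 arrays: the median of high fat diet minus chow over the same genes was 2.08. Ifit3, an antiviral protein that binds RNA, read 7492 and 7079 in the cultures and 161 and 1500.3 in fat, 46.4-fold higher than in chow fat. Isg15, a ubiquitin-like modifier, read 3120.1 and 3587 in the cultures and 105 and 721 in fat, 29.7-fold higher, and Ifit1, which blocks translation of viral RNA, read 2292 and 2259 in the cultures and 170.2 and 630.0 in fat, 13.5-fold higher. For these 3 genes both cultures were above both fat samples, and chow fat was the lowest of the 4. Stat2, a transducer of interferon signals, read 792 and 685 in the cultures and 26.5 and 499 in fat. It was 29.9-fold higher than in chow fat and less than 2-fold above high fat diet fat. Another probe set of Stat2 had a difference of 1.72, against 4.9 for the one read here. Zbp1, a sensor of nucleic acids that is not on the list, was 36.2-fold higher than in chow fat (1947 and 1849.7 in the cultures and 53.9 and 1232 in fat). Ccl5 and Cxcl10, chemokines that interferon also induces, were 25.8-fold and 17.9-fold higher than in chow fat and read 5909 and 2149 in the vehicle culture. High fat diet fat read 4030.3 for Ccl5 and had no value for Cxcl10. Of 13 MHC class I and antigen processing genes 6 were higher than in chow fat, with a median of 0.95, none separated on all 4 arrays, and a high fat diet minus chow median of 2.00, above that of the culture. Tapbp, tapasin, read 3222 and 3381 in the cultures and 159 and 3049 in fat, and the immunoproteasome subunit Psmb10 read 3409 and 3366 in the cultures and 646 and 3779 in fat. The sum of the macrophage markers also differed between the fat samples, 25189 on chow against 108561 on the high fat diet, and its part in the result was not tested.

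The promoters of Isg15, Ifit3 and Ifit1 are shown because the interferon element, searched as GAAANNGAAA on both strands, was present in 12 of 18 windows of the list (66.7%) and in 3.99% of all windows. Matches are in capitals, from RefSeq in GRCm38.p6. The Isg15 window lies at chr4:156200769-156201068 on the minus strand, that of Ifit3 at chr19:34583279-34583578 on the plus strand and that of Ifit1 at chr19:34640639-34640938 on the plus strand.
Isg15: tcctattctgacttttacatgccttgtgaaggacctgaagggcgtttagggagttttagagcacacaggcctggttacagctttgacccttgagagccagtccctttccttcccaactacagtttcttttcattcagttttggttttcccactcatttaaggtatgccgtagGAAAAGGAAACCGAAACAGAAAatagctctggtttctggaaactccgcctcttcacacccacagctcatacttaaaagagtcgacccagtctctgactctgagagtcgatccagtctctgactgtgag
Ifit3: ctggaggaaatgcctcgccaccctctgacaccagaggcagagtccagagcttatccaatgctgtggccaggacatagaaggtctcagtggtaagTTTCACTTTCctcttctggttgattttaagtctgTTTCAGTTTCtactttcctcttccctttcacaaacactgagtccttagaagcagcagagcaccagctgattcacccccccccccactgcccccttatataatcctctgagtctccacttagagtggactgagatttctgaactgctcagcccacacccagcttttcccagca
Ifit1: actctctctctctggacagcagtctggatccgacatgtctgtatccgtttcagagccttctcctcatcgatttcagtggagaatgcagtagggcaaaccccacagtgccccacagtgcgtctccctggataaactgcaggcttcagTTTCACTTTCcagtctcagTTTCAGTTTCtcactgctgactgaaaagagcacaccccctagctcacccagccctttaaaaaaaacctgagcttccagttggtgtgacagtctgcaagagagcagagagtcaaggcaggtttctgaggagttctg
The windows hold 3, 2 and 2 matches, all before the transcript start.

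Stress response genes were higher in culture with no member of several lists lower. The integrated stress response, in which the factor ATF4 raises amino acid import and transfer RNA charging, gave 14 higher and none lower of 23 (median 1.53), 12 of them separated on all 4 arrays. Slc7a11, the cystine and glutamate exchanger, read 585 and 680.3 in the cultures and 10.0 and 30.8 in fat, at least 23.3-fold higher in culture. Gdf15, a circulating stress hormone, read 3250.3 and 5217 in the cultures and 157 and 439 in fat, 20.8-fold higher. Slc7a5, a carrier of large neutral amino acids, was 16.8-fold higher (1629.9 against 96.8), and Ddit3, the transcription factor CHOP, was 8.85-fold higher (3747 against 423). In Slc7a11 and Gdf15 the cultures and the fat samples did not overlap.

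The oxidative stress list, mostly targets of the factor NRF2, gave 11 higher and none lower of 24 (median 0.82), 9 of them separated on all 4 arrays. Srxn1, which repairs oxidised peroxiredoxins, read 5960.1 and 6185 in the cultures and 382 and 949 in fat, 15.6-fold higher. Txnrd1, thioredoxin reductase, read 5846 and 6379 in the cultures and 659.7 and 1606 in fat, 8.86-fold higher. Hmox1 and Slc7a11, described above, are on this list too. Gclm, the modifier subunit of the enzyme that starts glutathione synthesis, was 7.16-fold higher (4578 against 639). Iron and heme handling gave 4 higher and 2 lower of 14. The iron exporter Slc40a1, abundant in macrophages, was 19.3-fold lower (36.8 against 710.4), and the importers Slc11a2 (8.86-fold) and Tfrc (6.77-fold) were higher.

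The windows of Slc7a11 and Gclm are shown for the letters read by these factors. The amino acid response element, searched as TGATGNAA, was present in 9 of 21 windows of the integrated stress response list (42.9%) and 4.51% of all windows, and the antioxidant element, searched as TGACNNNGC, in 8 of 19 of the NRF2 list (42.1%) and 14% of all windows, both on either strand. The Slc7a11 window is at chr3:50443564-50443863 (minus strand) and the Gclm window at chr3:122245307-122245606 (plus strand), from RefSeq in GRCm38.p6, with matches in capitals.
Slc7a11: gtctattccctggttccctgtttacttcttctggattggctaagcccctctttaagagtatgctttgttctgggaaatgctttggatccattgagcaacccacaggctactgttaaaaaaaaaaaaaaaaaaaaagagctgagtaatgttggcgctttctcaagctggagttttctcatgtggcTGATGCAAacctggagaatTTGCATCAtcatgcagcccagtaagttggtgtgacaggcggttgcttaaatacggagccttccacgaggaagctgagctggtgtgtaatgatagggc
Gclm: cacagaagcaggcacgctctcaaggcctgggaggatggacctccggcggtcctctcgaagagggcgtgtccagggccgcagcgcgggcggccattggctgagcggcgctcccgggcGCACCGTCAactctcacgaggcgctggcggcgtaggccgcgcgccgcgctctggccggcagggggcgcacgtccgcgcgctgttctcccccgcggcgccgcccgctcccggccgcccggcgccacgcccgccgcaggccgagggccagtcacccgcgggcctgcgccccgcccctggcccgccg
The first holds 2 matches of the amino acid element and the second 1 of the antioxidant element.

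Heat shock proteins gave 10 higher and none lower of 16 (median 1.11). Hsp90aa1, the inducible HSP90, read 6673 and 6939 in the cultures and 510.1 and 2308 in fat, 13.1-fold higher, and Hsph1, a nucleotide exchange factor of HSP70, was 4.33-fold higher (2199 against 508). Hspa1b was 4.97-fold and its near-identical neighbour Hspa1a 4.28-fold higher, and probes for the pair may share signal. Only 3 of the list were separated on all 4 arrays. Chaperones of the endoplasmic reticulum gave 8 higher and none lower of 20 (median 0.84), 1 separated on all 4 arrays, with Sdf2l1 (4.14-fold), Manf (3.34-fold), Creld2 (3.31-fold) and Pdia6 (3.21-fold) at the top. Proteasome subunits gave 8 higher and none lower of 22 (median 0.87), 0 separated on all 4 arrays, from 2.81-fold for Psmb5 and 2.75-fold for Psma2 downwards. High fat diet fat also lay above chow fat for these lists, with medians of 0.64 for the chaperones and 0.69 for the proteasome. Ribosome biogenesis and translation factors gave 12 higher and none lower of 17 (median 1.42), 8 separated on all 4 arrays. Myc, the transcription factor that drives this programme, read 3111 and 1766 in the cultures and 335 and 538 in fat, 9.28-fold higher. Polr1b, a subunit of RNA polymerase I, was 8.32-fold higher, and Nolc1, a nucleolar chaperone, was 6.76-fold higher. The ribosomal proteins themselves gave 1 higher of 33 (Rpl11, 2.22-fold), with a median of 0.46. Housekeeping genes had a median of 0.57 with 2 of 13 2-fold higher, so medians of about this size do not stand apart from genes often used as references.

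Immediate early genes gave 9 higher and 1 lower of 22. Maff, a small partner of stress factors, was 11.8-fold higher (4982 against 422), Egr1 was 7.30-fold higher (3568 against 489), and Klf2 was the lower one. Fos, the AP-1 subunit induced within minutes by many stimuli, read 331 and 3884 in the cultures and 295 and 3467 in fat. It differed by 1.12-fold in the main pair and did not reach the level filter. Cell division genes gave 7 lower and 1 higher of 32. The higher one was Pcna (2.05-fold), a clamp of DNA replication and repair, and the lower ones included the replication helicase subunit Mcm7 (2.18-fold lower, with a difference of -0.27 in another probe set) and the cell cycle inhibitor Cdkn2c (2.20-fold lower).

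Glucocorticoid targets were lower for 9 of 15 and higher for 2 (median -1.40), with 2 and 2 separated on all 4 arrays. With the median over each gene's probe sets the list's median was -0.60. Tsc22d3, the leucine zipper protein GILZ, read 244 and 218 in the cultures and 3564 and 2792 in fat, 14.6-fold lower in culture. Sgk1, a kinase of sodium transport, was 3.81-fold lower (833 against 3174), and Per1, which is also a clock gene, was 3.20-fold lower than in chow fat, with overlap between the kinds of sample (506 and 1841 in the cultures and 1618 and 1205 in fat). Lcn2 was the highest of this list. The clock list was divided, with 4 higher and 7 lower of 18. Nr1d1, the repressor REV-ERB alpha, read 3527 and 3024 in the cultures and 419.8 and 443 in fat, 8.40-fold higher, and Bhlhe40, another repressor, was 5.98-fold higher. Per3 was 4.98-fold lower and Per2 3.98-fold lower. The sources used here do not state the hour at which the samples were taken. Lysosome genes gave 2 higher and 4 lower of 28, and the lowest, Ctss (9.99-fold lower) and Ctsh (9.83-fold lower), are cathepsins rich in macrophages.

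**Figure D3:**
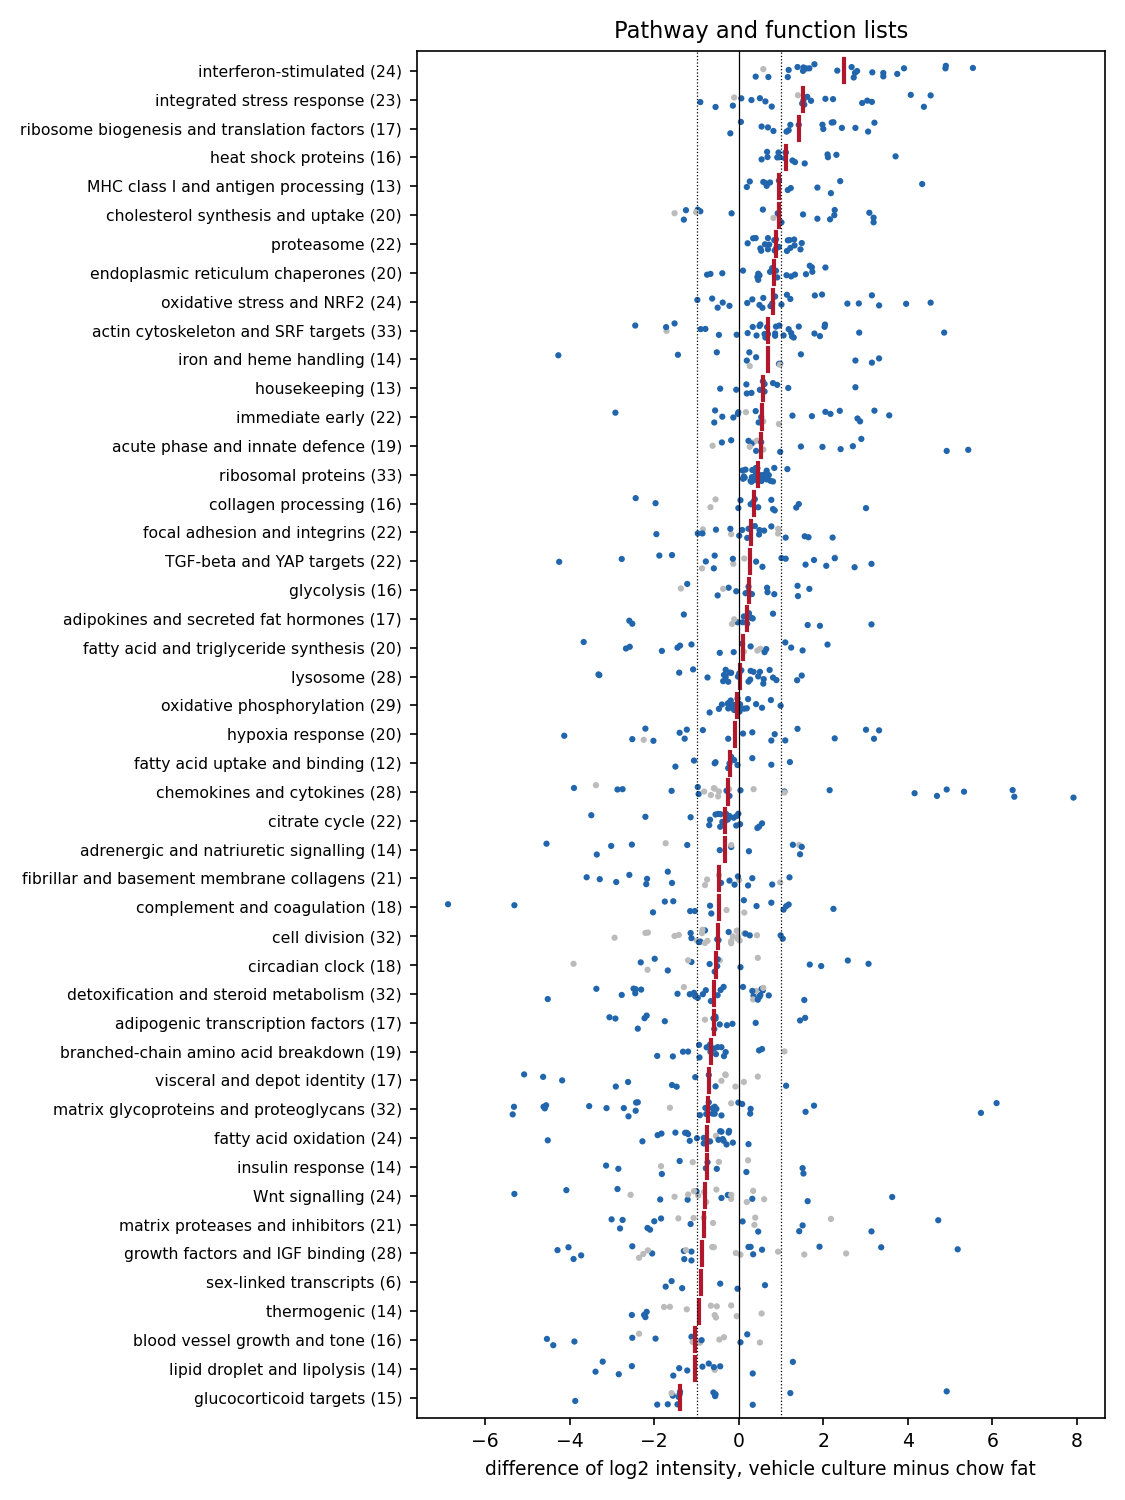
Difference of log2 intensity, vehicle culture minus chow fat, for each measured member (points, jittered) of the 47 function lists, drawn as in the plot of the cell marker lists. The interferon, integrated stress and ribosome biogenesis lists lie at the top (medians of 2.50, 1.53 and 1.42). The glucocorticoid target list has a median of -1.40.

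Several genes at the low end belong to none of the lists. B3galt2, a galactosyltransferase, was at least 80.8-fold lower (5.47 against 1786), and Adgrg1, an adhesion receptor, was 53.9-fold lower (23.2 against 1248). Cd24a, a surface glycoprotein of early adipocyte precursors and blood cells, read 18.7 and 10.1 in the cultures and 1073 and 1135 in fat, at least 48.6-fold lower. Aqp1, the water channel of capillary endothelium, read 86.5 and 69.8 in the cultures and 3302 and 3680.1 in fat, 38.2-fold lower, with no overlap between cultures and fat. Sex-linked transcripts were read as a check of the samples. Of 6 none was higher and 3 were lower. Ddx3y, on the Y chromosome, read 1163 and 1752 in the cultures and 1581 and 1390.1 in fat, and Xist, the X inactivation RNA, read 345 and 447 in the cultures and 353 and 149.5 in fat.

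**Figure D4:**
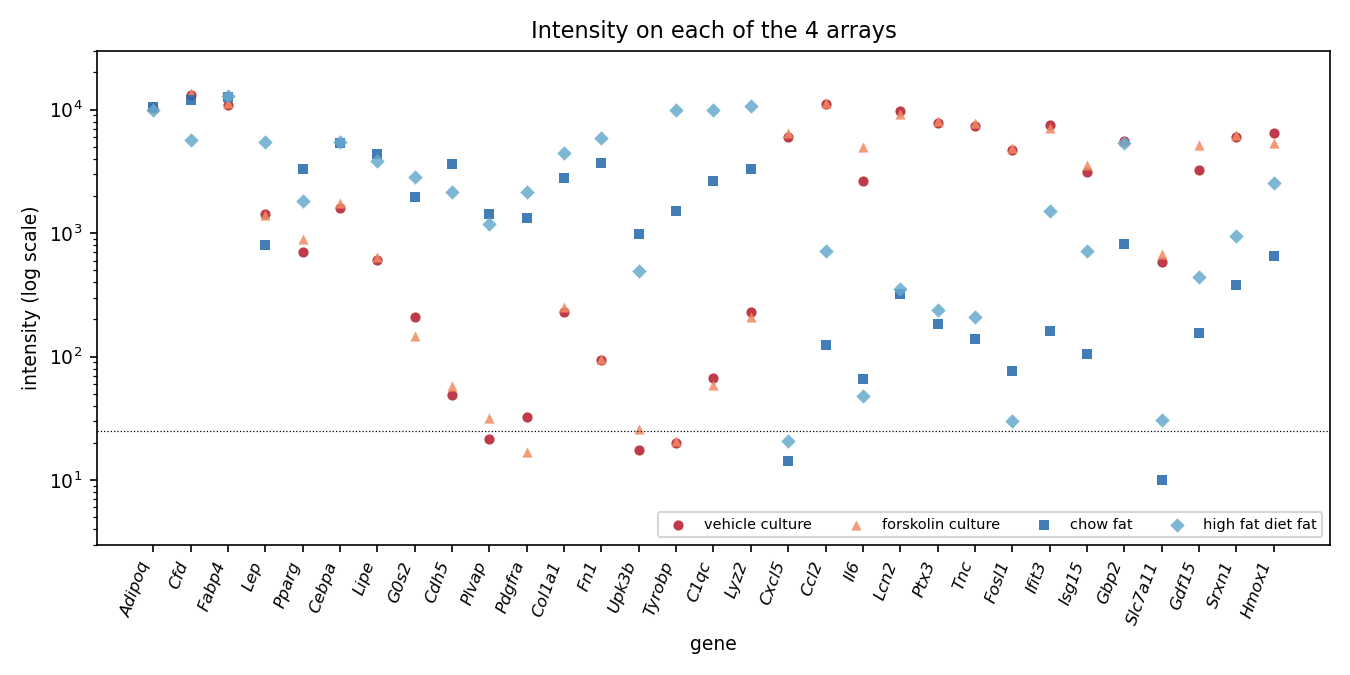
Intensity (log axis) of 31 genes on each of the 4 arrays, circles and triangles for the cultures, squares and diamonds for the fat samples, and a dotted line near the arrays' floors. The endothelial, fibroblast, mesothelial and macrophage genes separate the cultures below the fat samples, the chemokine, acute phase and stress genes separate them above, Adipoq, Cfd and Fabp4 do not separate, and for Gbp2 and Isg15 the high fat diet sample lies nearer the cultures than chow fat does.

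Probe sets of 1 gene did not always give the same call. Of 448 genes called higher that had another probe set at the median level, 331 had the same sign in every such probe set and 223 were 2-fold higher in every one. Of 315 called lower, 253 and 174 did so. Among the genes named here with a 2-fold difference, 45 had another probe set at that level, and in 5, Acsl1, Cs, Gpam, Prkar1a and Vegfa, one of these had the opposite sign. In the pair that shares no array with the main one, forskolin culture and high fat diet fat, 506 of 1249 genes called higher were 2-fold higher and 185 had the opposite sign, and 779 of 1297 called lower were 2-fold lower and 139 had the opposite sign.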

How the data were processed

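The authors deposited 1 table of linear, non-negative intensities per Affymetrix probe set for the 4 arrays, and the same values a second time in the series' value table (90504 of 90504 cells equal). For these intensities the software, scaling and background correction were not given in the sources used here. Gene IDs of the table were matched to RefSeq names (GRCm38.p6). Of 22626 probe sets, 20834 matched by gene ID, 482 that named several genes and 769 that named none were left out, and the rest were named by symbol. Each gene was read from its probe set with the most values and then the highest mean log2 level. Intensities were floored at each array's 10th percentile and converted to log2. With 1 array per group no test was made, and array number limits the precision. A call is a 2-fold difference with the brighter array at or above the median level. The steps were tested on simulated data. The text names the 20 highest and 20 lowest genes, up to 4 members of each list with the largest difference, cell markers, the 10 genes per direction with the largest gap over 4 arrays, and a fixed set with Adipoq and Pparg, apart from a few genes that are not reported here. Other named genes were chosen after their values were seen. The comparison and the 66 lists (19 of cell markers, 47 of functions) were chosen with earlier results of these data known, as were all motifs but the CArG box. Alternatives were other thresholds, filters, scalings, floors, probe set rules and array pairs. Python 3.11.15 with pandas and NumPy was used. Plin1 was not analysed here.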

Additional observations from a re-analysis of the deposited data

Results flagged for a closer look

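In 3 of the genes named above the difference between culture and fat took the opposite direction, by 2-fold or more each way, in the pair that shares no array with the main one. These differences between pairs were not tested. Dgat1 had a difference of -2.67 in the vehicle culture against chow fat and of 1.38 in the forskolin culture against high fat diet fat. Vegfa had -2.52 and 1.84, and Metrnl had 1.92 and -1.04.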

How the results depend on the processing

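No paired analysis was possible because each group is 1 array and the labels give no replicate numbers. The 1253 higher and 1306 lower calls became 2100 and 2043 at a 1.5-fold threshold and 569 and 706 at 3-fold. Higher and lower calls were 1596 and 2217 with no level filter, and 859 and 580 with the filter at the 75th percentile. Against high fat diet fat the higher calls were 665 for the vehicle culture and 720 for the forskolin culture. Quantile normalization and centring gave counts within 1.5 times the main ones, though centring on all genes turned the split as given above.

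Of 202 named genes, 148 kept their side of the 2-fold threshold in the forskolin culture against high fat diet fat, and 152 in the vehicle culture against high fat diet fat. The same direction was required only of genes with a 2-fold difference in the main pair. The changes of sign that follow are limited to named genes with a 2-fold difference in the main pair. They leave out genes under 2-fold there, such as Lep. It was 1.76-fold higher than in chow fat, and read 1419 and 1390 in the cultures against 5517 in high fat diet fat. Differences with the opposite sign were, in the vehicle and then the forskolin culture against high fat diet fat, Metrnl -1.24 and -1.04, Pcna -1.02 and -0.70, Npr3 -0.90 and -0.83, Sdf2l1 -0.49 and -0.55, Tgfb1 -0.44 and -0.54, Psmb10 -0.15 and -0.17, Hibch 0.14 and 0.04, and Dbt 0.02 and 0.02. In the forskolin culture against high fat diet fat alone they were Vegfa 1.84, Dgat1 1.38, Ddit4 0.69, Per1 0.61, Itga3 0.13, Irx3 0.06, Acsl5 -0.07 and Csprs -0.12. In the forskolin culture against chow fat they were Dgat1 0.06 and Per1 0.19, and with the median over probe sets Per3 0.07. The median over probe sets at or above the level filter was chosen after seeing the data. The causes were not tested. Sample type cannot be told apart from array series, and each group is 1 array. Values near the floor and near the top of an array have little order, and probe sets of 1 gene can disagree. The error of the differences of single genes is therefore not known.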
